A study of Mus musculus with 8 samples.

Results

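Immediate early genes and other short-lived mRNAs were described here in follicular B cells sorted from mouse spleen, the mature recirculating cells that fill lymphoid follicles. The 37 genes were chosen by symbol as activation-induced and labile mRNAs, with earlier results of these data known. All 37 were found by Ensembl identifier among the 43629 genes of the deposited count table, and 32 of them passed the filter on low counts, which left 13035 genes to be tested in all. The 4 libraries labelled GFP-ZFP36L1 carried the Rosa26GFPZFP36L1 allele together with CD23cre in the heterozygous state (Rosa26GFPZFP36L1 CD23cre/+). The 4 control libraries carried the Rosa26GFPZFP36L1 allele alone and are called WT in the series title. Cre driven from CD23 acts in mature B cells, and no group with Cre alone is among the samples, so the effects of Cre and of GFP-ZFP36L1 cannot be told apart. The cells were sorted ex vivo as B220+CD93+CD21+CD23+ and were not stimulated in culture as far as the labels say. Cd93 is among the transitional markers used below, so the gate as written does not match the name follicular on this point. The labels do not settle which is right. Age and sex are not given in the labels, and they do not name the animals behind each library. The p-values therefore describe the spread among these 8 libraries, which may be technical. The comparison asks how the levels of these mRNAs differ between the libraries labelled GFP-ZFP36L1 and the controls.

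Immediate early genes are transcribed within minutes of a signal because the factors that switch them on are already bound or are activated by phosphorylation, with no need for new protein. Their transcripts are short-lived, in many cases through AU-rich elements in the 3' UTR. Proteins of the ZFP36 family, of which ZFP36L1 is one, bind the UAUUUAU core of such elements and recruit the machinery that removes the poly(A) tail. In B cells these genes answer antigen receptor engagement, and many of them are also known to respond to stress and to the handling of tissue.

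The AU-rich core was common among the chosen genes. At least 1 UAUUUAU heptamer, counted as TATTTAT on the sense strand with overlaps allowed, was present in the longest annotated 3' UTR of 20 of the 37 genes (54.1%), and 12 genes (32.4%) held 2 or more. Among all tested genes with an annotated 3' UTR, 29.7% of 10961 held at least 1 and 10.5% held 2 or more. The 5 members that were not tested all held at least 1, and among the 32 tested members the shares were 46.9% and 31.2%. The tested members had 0.88 heptamers per kb of 3' UTR, against 0.283 in all tested genes, and a median 3' UTR of 926 nt, against 1164 nt. The genes were chosen as labile mRNAs, so these shares carry no test. The sites below are shown because they belong to the genes whose levels are described in most detail, and they show how differently a heptamer can be arranged. Each is a 30-base stretch of the 3' UTR on the sense strand of GRCm38, with heptamers in capitals.
Pim1, chr17:29495690-29495719, plus strand: ttaatgTATTTATTTATTTATTTATttggt
Plk2, chr13:110400733-110400762, plus strand: taataaacttttTATTTATtacagccccaa
Ppp1r15a, chr7:45522951-45522980, minus strand: tcctatTATTTATTTATTTATTTATttgaa
Fos, chr12:85477102-85477131, plus strand: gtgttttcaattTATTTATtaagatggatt
Jun, chr4:95049079-95049108, minus strand: tttgcttgtgcaTATTTATaatagcgttcg
Dusp1, chr17:26506159-26506188, minus strand: ggagctggtcctTATTTATttaacaccccc
Cd69, chr6:129267933-129267962, minus strand: ctctagagttacTATTTATtgccgaatgac
Pim1 and Ppp1r15a each carried 4 overlapping heptamers within the stretch shown, while Plk2, Fos, Jun, Dusp1 and Cd69 had 1 there and Plk2, Fos and Dusp1 had 2, 2 and 3 in the whole 3' UTR. Cd83, Dusp4, Myc, Nr4a1, Ier2, Ier5, Junb and both Hspa1 genes were among the 17 genes with 0.

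The cyclic AMP response element, TGACGTCA, was searched for on both strands in the 300 bases around the start sites that RefSeq lists for GRCm38.p6, which covered 28 of the 37 genes in 35 windows. It was found in 4 of those windows (11.4%), those of Dusp1, Maff, Plk2 and Ppp1r15a, and in 1.79% of all 32851 windows. The CArG box bound by serum response factor was found in 5 windows, 4 of Egr2 and 1 of Dusp5, and in 1.63% of all windows. No window of these genes held the AP-1 motif TGANTCA or the heat shock element (GAA, TTC and GAA, each 2 bases apart), which stood in 7.81% and 0.603% of all windows. Genes outside the 28 were not searched, and in 35 windows 0 cannot be told apart from 0.603%. The 3 stretches below are printed because their genes are described by library further on, with the response element in capitals.
Plk2, chr13:110394971-110395000, plus strand: agcgctcgccgTGACGTCAcgaggccccgc
Dusp1, chr17:26508597-26508626, minus strand: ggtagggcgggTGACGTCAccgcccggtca
Ppp1r15a, chr7:45526262-45526291, minus strand: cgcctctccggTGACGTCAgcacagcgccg
The 3 genes did not follow one pattern: Plk2 was lower in the libraries labelled GFP-ZFP36L1, whereas Dusp1 and Ppp1r15a were high in replicates 3 and 4 of that group.

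Library totals ran from 38947758 to 48328512 counts in the libraries labelled GFP-ZFP36L1 and from 40976668 to 51024233 counts in the controls. Zfp36l1, the gene named in the allele, was not higher but lower in the libraries labelled GFP-ZFP36L1, at 439 ± 28.6 against 547 ± 35.1 counts per 1000000 (CPM; SD, n = 4 each), so groups are called by their labels. Whether reads of the GFP-ZFP36L1 transgene were counted under Zfp36l1 is not given in the labels. B cell markers were abundant, with a summed level of 9252 to 10593 against 10493 to 11335 CPM over 6 genes, and 4 follicular markers summed to 6026 to 6851 against 7398 to 7709.9 CPM, with no overlap. Of the other lists, marginal zone markers (4 genes) summed to 226 to 286 against 199 to 249 CPM, transitional markers (4 genes) to 66.6 to 94.7 against 91.1 to 107 CPM and plasma cell markers (4 genes) to 96.4 to 123 against 100.0 to 125 CPM. Dtx1, Vpreb3 and Xbp1 made up most of these sums, which hide members that moved otherwise. Mean levels were 13.3 against 7.09 CPM for S1pr3, and 61.8 against 84.0 for Vpreb3 but 5.83 against 3.92 for Myb. They were 0.919 against 1.6 CPM for Jchain and 2.25 against 1.49 for Prdm1. None of these genes was called. Myeloid markers (7 genes) summed to 5.63 to 6.84 against 5.77 to 7.04 CPM and erythroid markers (6 genes) to 3.66 to 8.43 against 2.45 to 13.4 CPM. T cell markers (7 genes) summed to 33.7 to 34.7 against 31.8 to 34.7 CPM, of which Lck made up 33.5 to 34.4 against 31.4 to 34.3, and NK markers (4 genes) to 0.288 to 0.463 against 0.161 to 0.358 CPM, with Ncr1 and Gzma at 0 counts in every library. Of the marker genes reported here, Ighd and Pax5 fell and Itgam rose (adjusted p of 0.0493, 0.0405 and 0.0395). Leaving out GFP-ZFP36L1 replicate 2 or 3, or control replicate 2, 3 or 4, ended each of these 3 calls, and leaving out GFP-ZFP36L1 replicate 4 or control replicate 1 ended those of Ighd and Itgam. The largest adjusted p were then 0.152, 0.145 and 0.12 for Ighd, Pax5 and Itgam. Pax5 also missed the threshold with no filter, at 0.0513. Within the myeloid list Adgre1 went the other way from Itgam, at 1.73 ± 0.65 against 3.21 ± 0.574 CPM (SD, n = 4 each) with no overlap, and did not pass (adjusted p 0.0815). Cd93, written as positive in the sorting gate and also among the transitional markers, was at 11.3 ± 2.86 against 10.5 ± 2.0 CPM (SD, n = 4 each). The part of these shifts in the results below was not tested, and in sorted bulk RNA fewer cells of a type and less RNA per cell cannot be told apart.

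A set of 4 mRNAs fell in the libraries labelled GFP-ZFP36L1, those of Cd83, Dusp4 and the kinase genes Pim1 and Plk2, and 0 rose. Of all tested genes 1.30% were called lower, 1.83% higher and 3.12% in either direction by edgeR's quasi-likelihood test at an adjusted p under 0.05, against 4 and 0 of the 32 tested here. The members were chosen with earlier results of these data known, so these shares describe the list and do not test it. DESeq2 and limma voom each called 5 lower and 0 higher, but called more genes in all, 895 and 1064 in either direction against 407 by edgeR. At an unadjusted p under 0.05 there were 10 lower and 1 higher, or 34.4% of the tested members, where 17.3% of all tested genes passed that mark. The directions were evenly split: 16 had a positive and 16 a negative log2 fold change, with a median of 0.01 against -0.01 over all tested genes. The groups did not overlap for 4 members, Cd83, Pim1, Plk2 and Nr4a1, all lower in the libraries labelled GFP-ZFP36L1, where 4.98% of all tested genes had no overlap in that direction, 6.24% in the other and 11.2% in either. With GFP-ZFP36L1 replicates 3 and 4 both left out 0 members were called, and 62 genes were called in all.

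**Figure D1:**
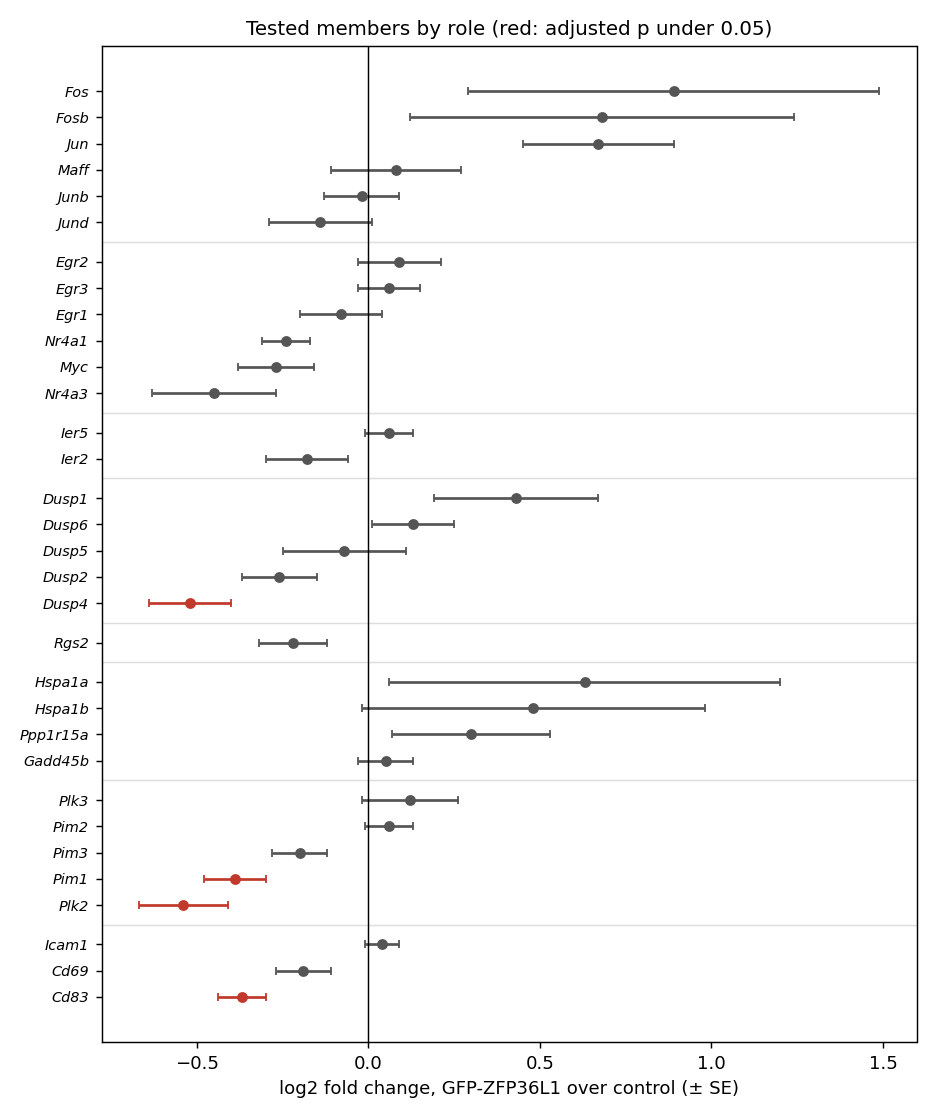
Log2 fold change, GFP-ZFP36L1 over control, of the 32 tested members, ordered by role; points are estimates of edgeR's quasi-likelihood fit and bars are ± 1 SE. The 4 red points, Dusp4, Plk2, Pim1 and Cd83, lie between -0.54 and -0.37, and the widest bars belong to Fos, Fosb, Hspa1a and Hspa1b.

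Cd83 (chr13:43784775-43803132, GRCm38) encodes a surface glycoprotein of activated B cells and dendritic cells that protects MHC class II and CD86 from degradation. It was among the most abundant of these mRNAs per length, at 59.7 against 77.2 CPM per kb of exon. Its level was 164, 152, 153 and 146 CPM in GFP-ZFP36L1 replicates 1 to 4, against 226, 203, 192 and 174 CPM in control replicates 1 to 4. Every library labelled GFP-ZFP36L1 lay below every control. Its log2 fold change of -0.37 ± 0.07 (SE) passed at an adjusted p of 0.0271. The call did not survive leaving out GFP-ZFP36L1 replicate 2, 3 or 4, or control replicate 2 or 3, and the largest adjusted p was then 0.0891. The other surface and secreted products did not pass. Cd69, an early activation marker that retains lymphocytes in tissue by pulling down the receptor S1PR1, had 114, 104, 117 and 105 CPM in GFP-ZFP36L1 replicates 1 to 4, against 107, 127, 132 and 138 CPM in the controls. Control replicate 1 was thus within the range of the libraries labelled GFP-ZFP36L1, and the other controls were above it. Its adjusted p was 0.199 and its log2 fold change -0.19 ± 0.08 (SE), and it passed with limma voom and without control replicate 1, at adjusted p of 0.0444 and 0.0472. Icam1, the ligand of the integrin LFA-1, was the steadiest member, at 63.1 ± 1.57 against 61.5 ± 2.99 CPM (SD, n = 4 each). The cytokine gene Il10 had a single count in GFP-ZFP36L1 replicate 2 and a single count in control replicate 2, and 0 in the other 6 libraries, where 3 counts would be 0.0691 to 0.0737 CPM.

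The kinase genes split. Pim1 (chr17:29490753-29496112), a serine/threonine kinase gene of growth and survival signalling, had 46.6, 37.3, 49.99 and 41.1 CPM in GFP-ZFP36L1 replicates 1 to 4, against 53.4, 54.8, 60.3 and 60.02 CPM in the controls, with no overlap. Its log2 fold change was -0.39 ± 0.09 (SE), adjusted p 0.0369. Leaving out GFP-ZFP36L1 replicate 2 or 4, or control replicate 2, 3 or 4, ended the call, with 0.124 as the largest adjusted p. The polo-like kinase gene Plk2 (chr13:110395046-110400844) was weakly expressed, at 3.36, 2.59, 2.81 and 3.17 CPM against 4.85, 4.63, 4.21 and 3.66 CPM in the same order of groups and replicates. Its groups did not overlap either, and its log2 fold change was -0.54 ± 0.13 (SE), adjusted p 0.0489. Leaving out any 1 library but GFP-ZFP36L1 replicate 1 ended this call, with 0.146 as the largest adjusted p, and it also missed the threshold with a filter of 1 CPM in 4 libraries (0.0525). Pim2 and Pim3, the paralogs of Pim1, had log2 fold changes of 0.06 ± 0.07 and -0.20 ± 0.08 (SE), and Plk3 had 0.12 ± 0.14 (SE), with adjusted p of 0.700, 0.204 and 0.709.

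**Figure D2:**
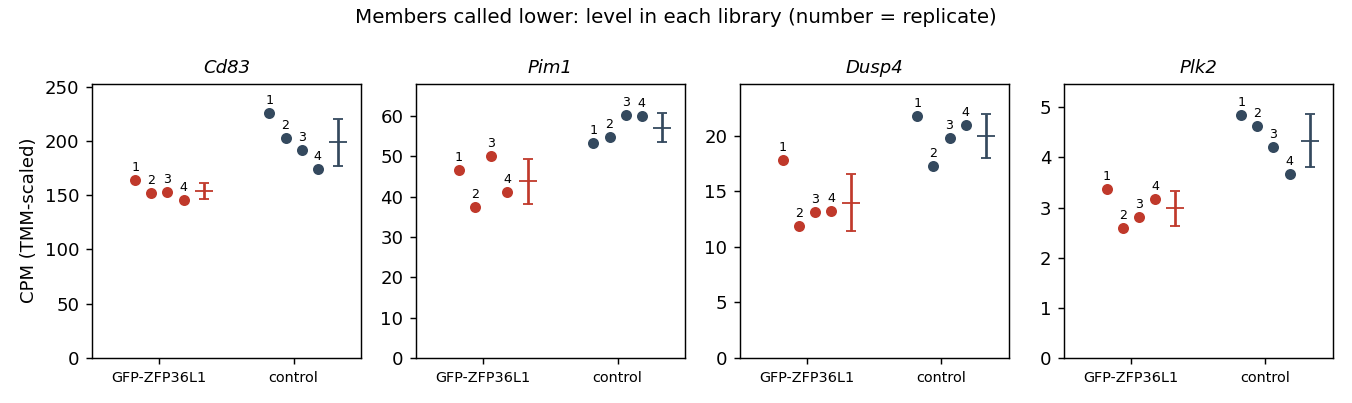
Level in CPM on TMM-scaled library sizes of the 4 members called lower, in 4 libraries labelled GFP-ZFP36L1 and 4 controls; numbers are replicates and the bar beside each group is the mean ± SD. Cd83, Pim1 and Plk2 show no overlap, while Dusp4 of GFP-ZFP36L1 replicate 1, at 17.8 CPM, lies above control replicate 2, at 17.3 CPM.

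The dual-specificity phosphatases switch off MAP kinases and are themselves induced by them. Dusp4 (chr8:34807297-34819894), a nuclear phosphatase of ERK and JNK, had 17.8, 11.9, 13.1 and 13.2 CPM in GFP-ZFP36L1 replicates 1 to 4, against 21.8, 17.3, 19.8 and 21.0 CPM in the controls. GFP-ZFP36L1 replicate 1 lay just above the lowest control and the others below all controls. Its log2 fold change of -0.52 ± 0.12 (SE) passed at an adjusted p of 0.0435. Only the fit without GFP-ZFP36L1 replicate 1 kept this call when 1 library was left out, and the largest adjusted p was 0.134. Dusp2, also nuclear and enriched in blood cells, was the most abundant of the 5, at 99.8, 78.4, 99.7 and 75.9 CPM against 126, 103, 93.3 and 101 CPM. It overlapped between the groups and did not pass, with -0.26 ± 0.11 (SE) and an adjusted p of 0.267. Dusp6, a cytoplasmic phosphatase specific for ERK, and Dusp5, a nuclear one, had log2 fold changes of 0.13 ± 0.12 and -0.07 ± 0.18 (SE), adjusted p 0.627 and 0.884.

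Nr4a1 encodes Nur77, an orphan nuclear receptor that tracks antigen receptor signalling in B cells. It had 26.2, 23.1, 26.4 and 23.5 CPM in GFP-ZFP36L1 replicates 1 to 4, against 31.9, 28.1, 27.7 and 29.5 CPM in the controls, with no overlap. Its log2 fold change of -0.24 ± 0.07 (SE) missed the threshold at an adjusted p of 0.0896, and it passed with DESeq2, with a title number term and with 1 surrogate variable, at 0.0352, 0.0354 and 0.0225. Its paralog Nr4a3 was at 1.87 ± 0.345 against 2.54 ± 0.452 CPM (SD, n = 4 each) and did not pass (adjusted p 0.219). Myc, the growth factor-induced transcription factor, had 40.5, 33.9, 38 and 47.4 CPM against 46.7, 40.4, 54.2 and 51.8 CPM, with overlap and an adjusted p of 0.223. The zinc-finger factors of the EGR family did not pass the test. Egr1 had 17.9, 12.6, 17.5 and 19.2 CPM in GFP-ZFP36L1 replicates 1 to 4, against 18.3, 15.0, 19.2 and 18.4 CPM in the controls, a log2 fold change of -0.08 ± 0.12 (SE). Egr2 and Egr3 had 0.09 ± 0.12 and 0.06 ± 0.09 (SE), and the adjusted p of the 3 ran from 0.764 to 0.795.

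**Figure D3:**
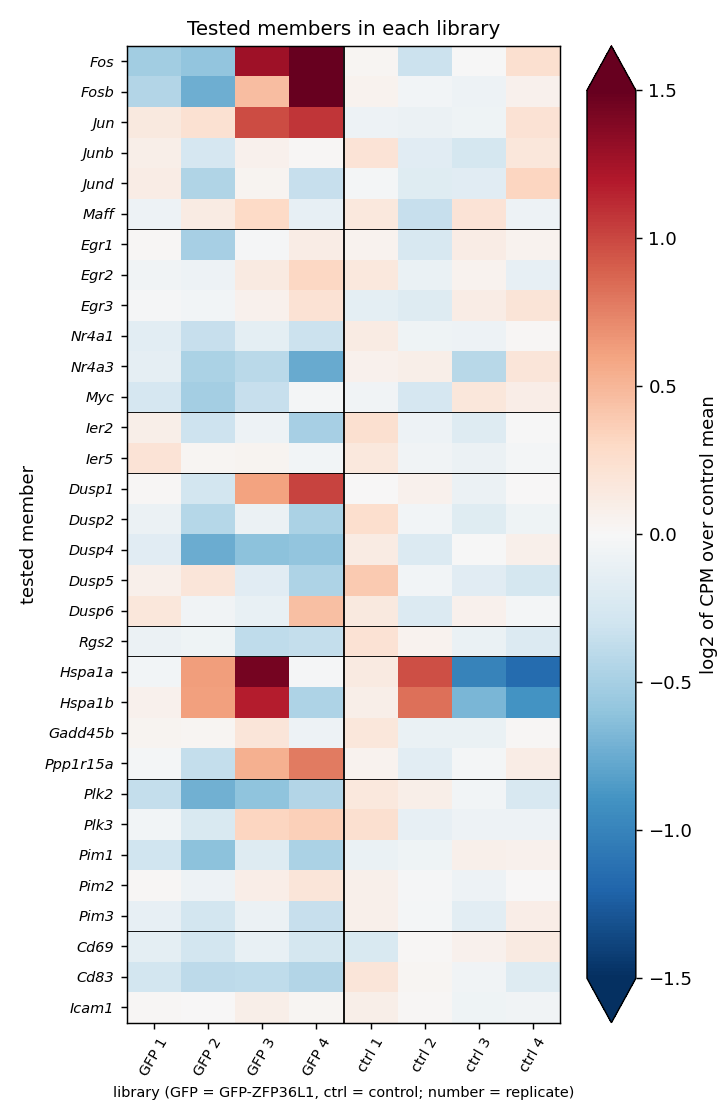
Log2 of CPM over the control mean (0.1 CPM added to both) for the 32 tested members, by role, in the 8 libraries; red is higher and blue lower, and the scale stops at ± 1.5. Fos, Fosb, Jun, Dusp1 and Ppp1r15a are red in GFP-ZFP36L1 replicates 3 and 4, and the Hspa1 genes in GFP-ZFP36L1 replicates 2 and 3 and control replicate 2.

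Among the AP-1 genes, whose products pair to form the AP-1 transcription factor, Fos, Fosb and Jun varied widely among the libraries labelled GFP-ZFP36L1 and little among the controls. Fos had 8.84, 8.48, 30.9 and 46.9 CPM in GFP-ZFP36L1 replicates 1 to 4, against 13.1, 10.2, 12.7 and 15.1 CPM in the controls. Replicates 1 and 2 were below all controls and replicates 3 and 4 above all of them, so the highest library of the group was at 5.52 times the lowest. Fosb had 2.23, 1.81, 4.24 and 11.5 CPM, against 3.17, 2.98, 2.90 and 3.19 CPM, and split in the same way. Jun had 39.1, 41.4, 69.7 and 74.5 CPM, against 33.3, 33.1, 33.7 and 41.0 CPM. Here replicates 3 and 4 were again the highest, but replicate 1 lay within the range of the controls and replicate 2 just above it. The log2 fold changes of Fos, Fosb and Jun were 0.89 ± 0.60, 0.68 ± 0.56 and 0.67 ± 0.22 (SE), with adjusted p of 0.512, 0.601 and 0.157. With GFP-ZFP36L1 replicates 3 and 4 both left out, a choice made after seeing the data, they were -0.55, -0.60 and 0.19, at adjusted p of 0.136, 0.149 and 0.434. Leaving out replicate 4 alone gave 0.34, -0.15 and 0.51.

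The other members of the family did not share that split. Jund, which is expressed at steady levels in many resting cells, had 89.1, 60.1, 84.5 and 64.9 CPM in GFP-ZFP36L1 replicates 1 to 4, against 80.7, 72.5, 72.8 and 103 CPM in the controls. Junb had 49.6, 39.0, 48.5 and 47.1 CPM, against 53.7, 41.3, 38.9 and 52.2 CPM. Both overlapped between the groups, with log2 fold changes of -0.14 ± 0.15 and -0.02 ± 0.11 (SE). Maff, a small Maf factor, had 1.20 ± 0.176 against 1.15 ± 0.206 CPM (SD, n = 4 each), and the adjusted p of the 3 genes ran from 0.701 to 0.967. Atf3, a stress-induced partner of AP-1, was barely detected, at 0.177 ± 0.0266 against 0.239 ± 0.0518 CPM, and was not tested. Junb shares 351 bp with Prdx2 on the other strand, at 49.7 against 51.6 CPM, and no source used here says whether reads were counted by strand, which leaves the counts of Junb uncertain.

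The same replicates were high for genes outside AP-1. Dusp1, a nuclear phosphatase of p38 and JNK, had 8.04, 6.53, 12.1 and 16.2 CPM in GFP-ZFP36L1 replicates 1 to 4, against 8.0, 8.33, 7.45 and 7.98 CPM in the controls. Ppp1r15a, named after its values were seen, encodes GADD34, which directs a phosphatase to the translation factor eIF2alpha, and had 32.1, 25.6, 47.6 and 56.4 CPM, against 34.1, 29.5, 32.3 and 35.5 CPM. In both genes replicates 3 and 4 were above all controls and replicate 2 below all of them. Plk3, named after its values were seen, had 8.08, 7.09, 10.4 and 10.7 CPM, against 9.86, 7.64, 7.90 and 7.89 CPM. Rgs1, which damps chemokine receptor signalling through G proteins and also named for its values, was too low to be tested, at 0.0691, 0.164, 0.323 and 0.755 CPM against 0.263, 0.201, 0.190 and 0.0491 CPM. GFP-ZFP36L1 replicate 4 held the highest value for both, and replicate 3 the next. The log2 fold changes of Dusp1 and Ppp1r15a were 0.43 ± 0.24 and 0.30 ± 0.23 (SE), adjusted p 0.414 and 0.562, and -0.12 and -0.18 without replicates 3 and 4. Dusp1 shares 640 bp with Ergic1 on the other strand, at 30.2 against 26.6 CPM.

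**Figure D4:**
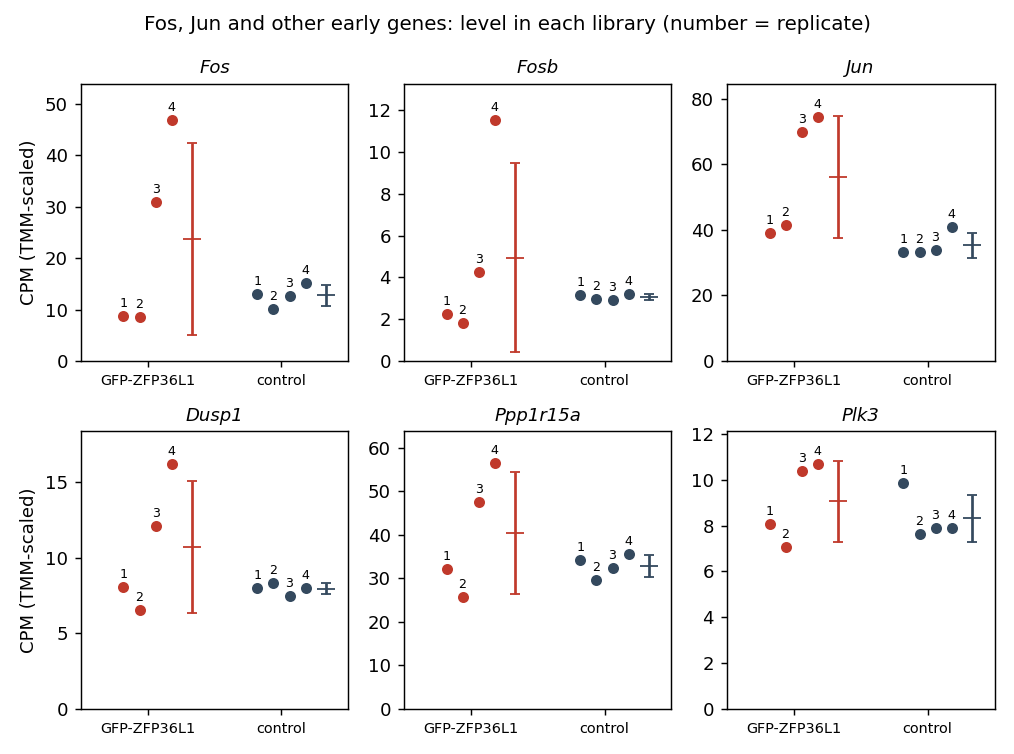
Level in CPM on TMM-scaled library sizes of Fos, Fosb, Jun, Dusp1, Ppp1r15a and Plk3 in 4 libraries labelled GFP-ZFP36L1 and 4 controls; numbers are replicates and the bar beside each group is the mean ± SD. In each gene GFP-ZFP36L1 replicates 3 and 4 are the highest 2 libraries, at 30.9 and 46.9 CPM for Fos and 69.7 and 74.5 CPM for Jun.

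GFP-ZFP36L1 replicate 4 was the highest of the 8 libraries in 11 of the 32 tested members (34.4%) and in 21.8% of all tested genes. Control replicate 1 was the highest in 10 members (31.2%) and in 20.4% of all tested genes. GFP-ZFP36L1 replicate 2 was the lowest library in 14 members (43.8%) and in 9.59% of all tested genes, and it was the lowest for 3 of the 4 called genes, Pim1, Dusp4 and Plk2. On the first principal component of all tested genes GFP-ZFP36L1 replicates 1 to 4 lay at -7.54, 7.38, 13.3 and 33, against -23.1, -12.9, -6.85 and -3.26 for the controls. The titles number the libraries in alternation, so replicates 3 and 4 had title numbers 6 and 8 in the group labelled GFP-ZFP36L1 and 5 and 7 in the controls. In the fit with a linear term for the title number, the log2 fold change of Fos was 0.37 and that of Jun 0.51, at adjusted p of 0.745 and 0.136. The labels give no day or order of sorting, and the part of such steps in the high Fos and Jun levels was not tested. The spread within groups was wider in these genes, with a median SD of 0.20 against 0.12 over all tested genes on the log2(CPM + 0.1) scale, and 4 of the 32, Fos, Fosb, Hspa1a and Hspa1b, exceeded 0.5 where 2.49% of all tested genes did.

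Hspa1a and Hspa1b encode nearly identical inducible HSP70 chaperones, and 1350 stretches of 100 bases, the read length, were shared between their annotated transcripts, or 47.1% of those of Hspa1a and 49.9% of those of Hspa1b. How reads were divided between them is therefore uncertain, and their sum was also taken. It was 56.4, 83.8, 127 and 41.5 CPM in GFP-ZFP36L1 replicates 1 to 4, against 58.5, 98.4, 33 and 28.5 CPM in the controls. GFP-ZFP36L1 replicate 3 and control replicate 2 were the highest, so this pattern was not that of Fos and Jun. Counted apart, Hspa1a had 7.07, 11.3, 19.8 and 7.19 CPM against 8.02, 14.3, 3.59 and 3.22 CPM, and Hspa1b had 49.3, 72.5, 107 and 34.3 CPM against 50.4, 84.1, 29.4 and 25.3 CPM. The summed level did not differ beyond the spread between libraries, with a difference of 0.54 in mean log2(CPM + 1) and an exact permutation p of 0.343, two-sided, where 4 against 4 libraries allow none below 0.0286. Gadd45b, a stress sensor upstream of p38 and JNK, had 19.4 ± 1.45 against 18.8 ± 1.74 CPM (SD, n = 4 each).

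A wider heat shock list was read in the same way. Of 15 genes, 14 were tested and 0 were called by edgeR's quasi-likelihood test or had an unadjusted p under 0.05, with a median log2 fold change of 0.15. Of all tested genes 3.12% were called and 17.3% had an unadjusted p under 0.05. Hsph1, a co-chaperone of HSP70, had 254, 349, 202 and 107 CPM in GFP-ZFP36L1 replicates 1 to 4, against 229, 267, 104 and 116 CPM in the controls. Its levels were higher in the libraries with title numbers 1 to 4 than in those with 5 to 8, in both groups. In 8 of the 14 genes, Hsph1, Hsp90aa1, Hsp90ab1, Hspa8, Hspd1, Hspe1, Dnaja1 and Chordc1, all 4 earlier numbers were above all 4 later ones, where this held for 4.40% of all tested genes. Among the 32 tested short-lived mRNAs it held for Dusp5 and Rgs2 (6.25%). The reverse held for Egr3 (3.12%) and for 3.97% of all tested genes, so the members were near the shares over all genes. This comparison was made after the values were seen and carries no test.

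**Figure D5:**
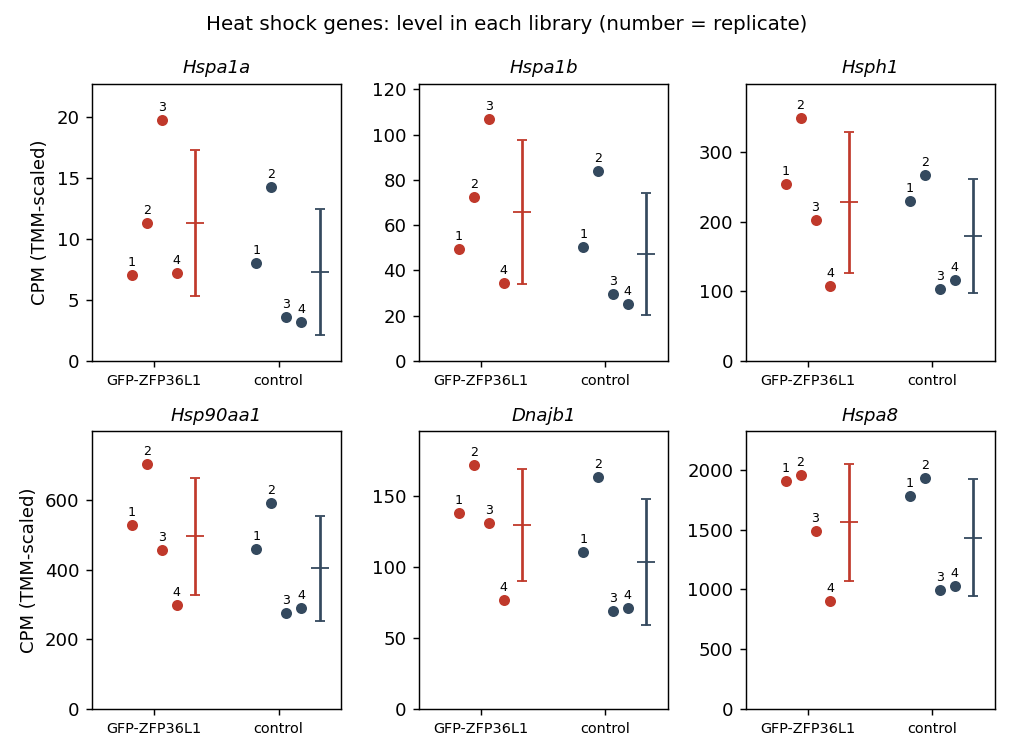
Level in CPM on TMM-scaled library sizes of Hspa1a, Hspa1b and 4 other heat shock genes in 4 libraries labelled GFP-ZFP36L1 and 4 controls; numbers are replicates and the bar beside each group is the mean ± SD. Control replicates 3 and 4 are low in all 6 genes, for Hsph1 at 104 and 116 CPM, and so is GFP-ZFP36L1 replicate 4 for Hsph1, Hsp90aa1, Dnajb1 and Hspa8.

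The IER genes held the most abundant of these mRNAs. Ier5, a nuclear protein that activates the heat shock factor HSF1, had 311, 275, 279 and 263 CPM in GFP-ZFP36L1 replicates 1 to 4, against 301, 262, 255 and 264 CPM in the controls, or 86.1 against 82.6 CPM per kb. That placed it at the 96.0th percentile of tested genes by level per length. Ier2 had 52.2, 39.6, 46.5 and 34.6 CPM, against 57.9, 46.5, 43.1 and 48.9 CPM. Both overlapped between the groups, with log2 fold changes of 0.06 ± 0.07 and -0.18 ± 0.12 (SE) and adjusted p of 0.723 and 0.5. Rgs2, a regulator of G protein signalling that acts on Gq, had 19.8 ± 2.34 against 23.0 ± 2.94 CPM (SD, n = 4 each), adjusted p 0.310. Ier3 and Nr4a2 had at most 3 counts in any library and were not tested. Per length, 20 of the 32 tested members lay above the median of all tested genes, and the lowest, Nr4a3, Maff, Fosb and Plk2, lay between the 11.5th and 18.4th percentiles.

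The fold changes were also read by heptamer. Of the 15 tested members with at least 1 heptamer 7 had a negative log2 fold change (46.7%, against 48.0% of all tested genes with one), with a median log2 fold change of 0.04, and Pim1 and Plk2 were called. Of the 17 without, 9 were negative (52.9%, against 51.9% of all tested genes without one), with a median of -0.02, and Cd83 and Dusp4 were called. Among all tested genes with a 3' UTR, 55 of 3254 with a heptamer (1.69%) and 97 of 7707 without (1.26%) were called lower, and 70 and 159 were called higher. Pim1 and Ppp1r15a, which carry the same run of 4 overlapping heptamers, had log2 fold changes of -0.39 ± 0.09 and 0.30 ± 0.23 (SE).

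A second list held early response genes outside the 37. Of 30 listed genes 24 were tested, 3 rose and 1 fell, with a median log2 fold change of 0.01. Of all tested genes 1.83% were called higher and 1.30% lower. An unadjusted p under 0.05 was reached by 41.7% of the 24 and by 17.3% of all tested genes. The list was chosen with earlier results of these data known, so these shares are no test of it. Rhob, which encodes a short-lived small GTPase, had 19.8, 15.0, 24.3 and 23.3 CPM in GFP-ZFP36L1 replicates 1 to 4, against 13.0, 13.1, 12.8 and 13.2 CPM in the controls, with no overlap. Klf10, induced by TGF-beta, had 11 ± 1.43 against 7.67 ± 0.963 CPM, and Jdp2, an AP-1 repressor, 0.952 ± 0.276 against 0.392 ± 0.0671 CPM (SD, n = 4 each). Sgk1, a kinase gene induced by glucocorticoids and serum, fell, at 19.6 ± 3.86 against 28.1 ± 1.71 CPM. The log2 fold changes of Rhob, Klf10, Jdp2 and Sgk1 were 0.66 ± 0.13, 0.52 ± 0.12, 1.27 ± 0.26 and -0.52 ± 0.12 (SE), with adjusted p of 0.0231, 0.0379, 0.0271 and 0.0402. Leaving out GFP-ZFP36L1 replicate 3, or control replicate 2, 3 or 4, ended each of these 4 calls, those of Klf10, Jdp2 and Sgk1 also without GFP-ZFP36L1 replicate 2, and those of Rhob, Jdp2 and Sgk1 also without control replicate 1. The largest adjusted p were then 0.0802, 0.13, 0.0915 and 0.117.

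Upstream and feedback genes gave no call in edgeR's quasi-likelihood test. Of all tested genes 3.12% were called and 17.3% had an unadjusted p under 0.05. With lists this short, 0 calls cannot be told apart from the 3.12%. All 14 factors that switch early genes on, such as Srf and Creb1, were tested and 0 were called, with 6 at an unadjusted p under 0.05 (42.9%) and a median log2 fold change of -0.06. The ERK, JNK and p38 list held kinases, their inputs and the inhibitors Spry1, Spry2, Spred1 and Spred2. Of its 20 genes 19 were tested and 0 were called, with 3 at an unadjusted p under 0.05 (15.8%) and a median of -0.01. All 13 NF-kB feedback genes were tested and 0 were called, with 3 at that mark (23.1%) and a median of -0.01. Of the ZFP36 family Zfp36l1 was called by edgeR's test, at -0.32 ± 0.07 (SE) and an adjusted p of 0.0348. Among the fits with 1 library left out, only the one without GFP-ZFP36L1 replicate 1 kept that call, and the largest adjusted p was 0.105. Zfp36 and Zfp36l2 had -0.12 ± 0.07 and -0.28 ± 0.10 (SE), adjusted p 0.464 and 0.189, and Zfp36l2 passed with limma voom, at -0.36 and an adjusted p of 0.019.

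Of the 34 members that have an adjusted p in the authors' deposited table, 5 were below 0.05, all with a negative log2 fold change, where 6.63% of 13191 genes were below it in either direction and 2.87% were lower. The authors' deposited table gives log2 fold changes of -0.33 for Cd83, -0.33 for Pim1, -0.40 for Dusp4, -0.39 for Plk2 and -0.21 for Nr4a1, with adjusted p of 0.000582, 0.00248, 0.00229, 0.00484 and 0.0391. For Fos, Fosb and Jun the authors' deposited table gives 0.11, 0.09 and 0.31, with adjusted p of 0.497, 0.641 and 0.0833. The DESeq2 fit made here on the same counts gave 0.90, 0.69 and 0.67 for these genes. The deposited log2 fold changes are therefore not on the same scale as those above, and the reason was not tested.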

How the data were processed

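RNA-seq was made from 8 libraries, 4 in each group. The submitters' processing notes list DESeq2 1.10.1, HTSeq, TopHat2 2.0.12, Trim Galore and the build GRCm38 without roles. The kit marks strand, per the labels' protocols. The authors deposited whole-number counts per gene, the basis of every test. The authors' deposited normalized signal equals the count divided by 1 constant per library (relative departures of at most 5.7e-10) and was used only for that check. The authors' deposited comparison gives log2 values and p-values. Its score-like signed fold column, deposited by the authors, was not used. In all, 0 columns were unmapped.

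Counts were fitted in R 4.3.3 with edgeR 4.0.16: filterByExpr, TMM factors, quasi-likelihood test with a robust prior, group as sole term, Benjamini-Hochberg adjustment over 13035 genes, called under 0.05. Adjusted p are from this test unless another is named. The fit was tested on counts simulated with the same dispersion for every gene, which does not cover genes as variable as Fos. CPM use TMM-scaled totals. Standard errors came from the F statistic. Depth limits the precision of genes with few counts. The floor for a count of 0 is 3 counts, counting error only. Gene models, symbols and 3' UTRs (longest after an annotated stop codon) came from GENCODE M21 (GRCm38). Exon lengths are unions over transcripts.

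Members and lists were chosen with earlier results of these data known. Values in every library were given for called members, the 8 most abundant per kb, the 4 largest changes of at least 1 CPM, and Fos, Jun, Egr1, Nr4a1, Ier2, Dusp1, Myc and Cd69; called genes of other lists were named, up to 4 by smallest p. Not every gene so taken is reported here. The settings tried were DESeq2 1.42.0, limma voom (3.58.1) with quality weights, RLE factors, plain library totals, no filter, 1 CPM in 4 libraries, the title number, 1 surrogate variable (sva 3.50.0) and each library left out. Leaving out GFP-ZFP36L1 replicates 3 and 4 was added after the data were seen.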

Additional observations from a re-analysis of the deposited data

Results flagged for a closer look

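Of 64 sets of 4 libraries (32 tested members in both groups), 2 held a library far from the other 3 by Dixon's gap test, where chance flags about 1 in 20. Jun in control replicate 4 was at 41.0 CPM, with the other controls between 33.1 and 33.7 CPM. Plk3 in control replicate 1 was at 9.86 CPM, with the other controls between 7.64 and 7.90 CPM. The high Fos and Jun levels of the group labelled GFP-ZFP36L1 were not picked out by this test, since replicates 3 and 4 were high together.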

How the results depend on the processing

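The 407 called genes became 895 with DESeq2, 1064 with limma voom, 1030 with a linear term for the title number, 1318 with 1 surrogate variable, 62 without GFP-ZFP36L1 replicates 3 and 4 together, and 79 to 948 with 1 library left out. Members called lower numbered 0 to 4 with 1 library left out (4 without GFP-ZFP36L1 replicate 1, and 0 without GFP-ZFP36L1 replicate 2 or 4 or control replicate 2 or 3) and 0 without GFP-ZFP36L1 replicates 3 and 4. Members without overlap numbered 4 to 7 with 1 library left out, 7 without control replicate 3. Smaller groups separate more easily, and the share of all tested genes was not taken in these settings, so a rise cannot be read. The summed Hspa1 difference stayed positive, at 0.26 to 0.88 with 1 library left out, where 4 against 3 libraries cannot pass. The cause was not tested. Over 512 values of the 32 tested members, 454 kept direction and call, 29 lost the call, 5 gained it and 24 changed sign, all of the last in genes that were not called.

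Without GFP-ZFP36L1 replicates 3 and 4 the sign turned for Fos (-0.55), Fosb (-0.60), Dusp1 (-0.12), Ppp1r15a (-0.18), Plk3 (-0.13), Egr2 (-0.06), Egr3 (-0.02), Pim2 (-0.03) and Dusp5 (0.13). Dusp5 was also positive with limma voom (0.03), the title number (0.04) and 1 surrogate variable (0.02), and Junb with limma voom (0.06) and 1 surrogate variable (0.00037). With 1 library left out the values ran from -0.15 to 0.96 for Fosb, -0.09 to 0.06 for Junb, -0.04 to 0.16 for Maff, -0.15 to 0.04 for Egr1, -0.17 to 0.09 for Dusp5 and -0.0012 to 0.11 for Gadd45b. No paired analysis was possible because the labels give no replicate numbers shared between the groups. Rgs1, Atf3, Nr4a2, Ier3 and Il10 had too few counts to pass the filter and were not compared.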
